A study of Mus musculus with 19 samples.

Results

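Mouse chromosome 6 was followed in 19 arrays by array comparative genomic hybridization (aCGH). Sample DNA and control DNA carry different dyes and bind to the same probes in this assay, and the ratio of their signals follows the number of DNA copies. All non-control probes on chromosome 6 were taken, except 345 probes at 2 antigen receptor loci, where rearranged DNA of lymphocytes can shift the ratio. This left 13644 of 221455 autosomal probes (6.16%). They were divided at 73.5 and 78.4 Mb (NCBI37) into a proximal segment of 6254 probes, a middle segment of 289 probes and a distal segment of 7101 probes. The chromosome and these bounds were chosen by the log2 ratios of the same arrays, in which 1 tumor had gained the whole chromosome and another was low between both bounds. The ratios of the segments in the tumors are therefore given as a description. Counts from a fit over all autosomes are also given below, but they include both of these tumors and are not independent of the choice.

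The samples were 9 unaffected livers, 1 from each of 9 mice, 4 adenomas of hepatocytes (HCA) and 6 hepatocellular carcinomas (HCC). All mice carried Mad2(f/f), a floxed Mad2 (Mad2l1) gene, on a C57BL/6.129 background with AlbuminCre, in which the albumin promoter drives Cre recombinase in hepatocytes. Other cells of the liver should keep the floxed gene, and the livers named unaffected carry the same alleles as the tumors. The HCAs came from females, mice 2430 and 6199 with p53(f/f) and mice 5884 and 5901 with p53(f/+), aged 12 to 16.9 months. The HCCs came from mice labelled p53ser246+ by genotype and p53ser249 by strain, 3 females and 3 males by tumor, aged 12.3 to 16.2 months, and 2 of these tumors, numbers 2 and 4, came from mouse 6240. Tumor type and p53 genotype cannot be told apart, since no genotype gave both types. Sample DNA was labeled with Cy5 and liver DNA of a C57BL/6.129 mouse of the opposite sex with Cy3.

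Mad2 is a part of the spindle assembly checkpoint, which holds a cell in mitosis until all chromosomes are attached to the spindle, and cells without it missegregate chromosomes. A missegregated chromosome is gained or lost whole, whereas the loss of a stretch within an arm needs breaks in the DNA. Hepatocytes are often polyploid, so that a gain or loss of 1 copy can change the ratio by less than it would in a diploid cell. The deleted gene Mad2l1 lies on chromosome 6 itself. The files give probe positions without gene names, and a gene annotation of NCBI37 was not used here, so that regions are named by position.

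Ratios are given on the log2 scale with the autosomal median of each array set to 0. The gain of 1 copy in a pure diploid sample would give a linear ratio of 1.5. The noise of single probes on chromosome 6, from the differences between neighbouring probes, was 0.18 to 0.42 and was highest in the liver of mouse 6240. That liver also stood apart in its level, with a mean of −0.15 over chromosome 6 against −0.01 to 0.07 in the other 8 livers. Tumors were therefore set against their own liver, against the livers of the other mice and against no liver at all. The share of tumor cells in a sample was not measured here, so that fewer changed cells and a smaller change per cell cannot be told apart. The sign of the X chromosome ratio matched the labelled sex on 19 of 19 arrays. Over 962 probes of the other autosomes that differed between livers (SD above 0.8), each of the 10 tumors was closest to the liver of its own mouse, with Spearman's rho of 0.59 or higher. Over 70 such probes of chromosome 6 this held for 8 of 10 tumors, and rho with the own liver was 0.51 or higher. The HCAs of mice 5901 and 6199 were there closest to the liver of mouse 5884, with rho of 0.744 and 0.790. With their own livers rho was 0.730 and 0.788. HCA 5884 matched its own liver by 0.7669 against 0.7668 for the next liver, so that these probes hardly separated the livers for these HCAs.

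Tumor 2 of mouse 6240, an HCC, had more DNA over the whole of chromosome 6. Its array ratio was 0.35 in the proximal segment, 0.29 in the middle segment and 0.34 in the distal segment. Against its own liver the differences were 0.48, 0.48 and 0.51. Set against the livers of the other mice they came to 0.33, 0.31 and 0.31, since its own liver was low. The mean over the chromosome was 0.35 as an array ratio, a linear ratio of 1.27, and 0.50 against the own liver, a linear ratio of 1.41. No segment of this tumor stood out from the others on its array.

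The other 9 tumors did not share this level. In the 5 other HCCs the array ratio over the chromosome ran from −0.15 to 0.09, with a mean of 0.01 ± 0.10 (SD, n = 5). Tumor 4 of mouse 6240, taken from the same liver as tumor 2, had the lowest of these ratios, −0.15, which differed by −0.0042 from that of their shared liver. Tumor 2 was higher than tumor 4 by 0.50 over the chromosome and in 679 of 681 windows of 20 neighbouring probes. HCC 6487 (mean 0.07), HCC 6602 (0.09) and HCC 6642 (0.06) lay slightly above 0, and HCC 6565 lay at −0.01. Against their own livers these 4 HCCs were at −0.03 to 0.06.

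**Figure D1:**
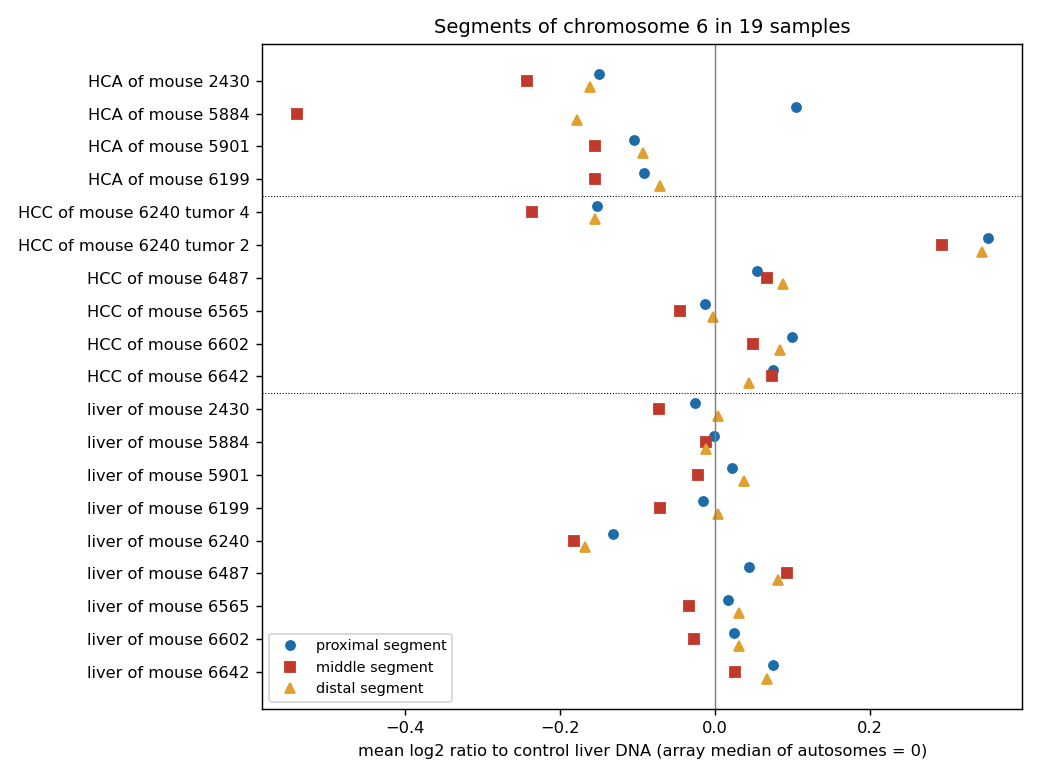
Mean log2 ratio (x axis, autosomal median of the array at 0) of the proximal, middle and distal segment of chromosome 6 in each of 19 samples, 4 HCAs, 6 HCCs and 9 livers, separated by dotted lines. The 3 points of HCC 6240 tumor 2 lie together at 0.29 to 0.35, and those of HCA 5884 lie apart, at 0.10, −0.54 and −0.18.

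Among the autosomes of tumor 2 of mouse 6240, chromosome 6 had the largest gain, with 0.50 against the own liver, and 1 other autosome followed at 0.49. These 2 autosomes were the ones beyond 0.3 in either direction in this tumor. Chromosome 6 ranked between 5 and 15 from the highest of the 19 autosomes in the other 9 tumors, and in none of them was its mean beyond 0.3. In these tumors other autosomes had the extreme ratios, up to 0.65 in HCC 6602 and down to −0.42 in HCC 6642.

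**Figure D2:**
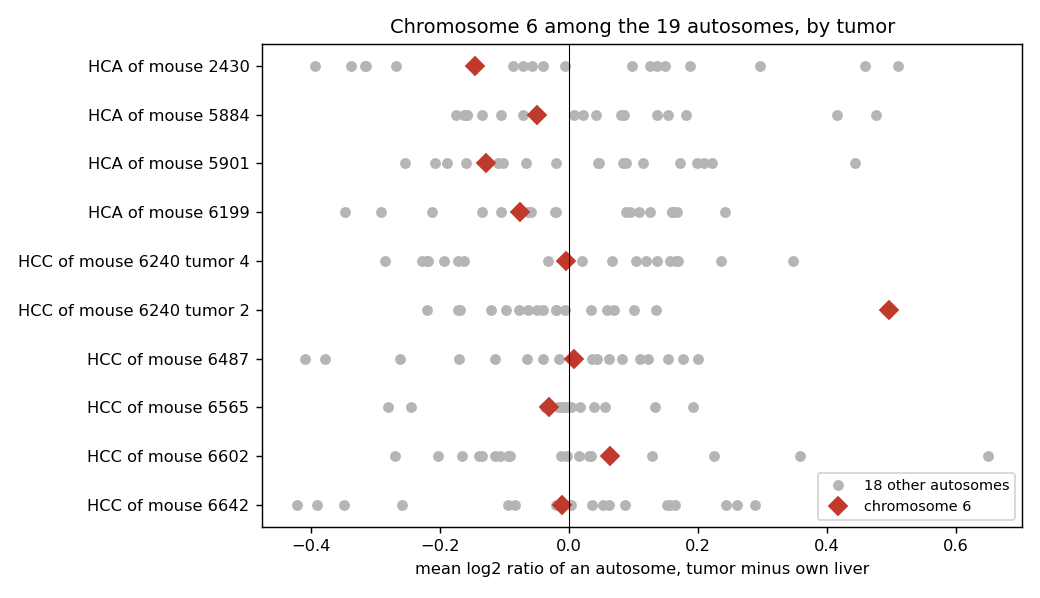
Mean log2 ratio of each autosome, tumor minus own liver (x axis), in 10 tumors (rows), with chromosome 6 as a red diamond and the 18 other autosomes in grey. Chromosome 6 is at the right end in HCC 6240 tumor 2 (0.50) and inside the range of the other autosomes in the other 9 tumors.

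The gain was visible in single windows along the chromosome. In tumor 2 of mouse 6240, 674 of 681 windows were above the own liver by more than 0.3, where 9.79% of all autosomal windows of this tumor were. Its windows had a median array ratio of 0.35, from −0.15 to 0.91, and 665 of them were above every liver. Since the chromosome was chosen for this gain, the share says only how evenly the gain was spread.

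A few short stretches of that chromosome took little or no part in the gain. Between 6.27 and 6.45 Mb, 12 neighbouring probes over 179 kb had a mean of −0.65 in tumor 2 of mouse 6240, and each of the 12 was below 0 and below the own liver. The probes within 1.5 Mb on either side had a mean of 0.40, and the stretch minus its surroundings was −1.06. The own liver (−0.17), the other 8 livers (up to 0.45) and the 9 other tumors (−0.17 to 0.18) had no such value there. Chromosome 6 of this tumor was also lower between 23.42 and 23.92 Mb, where 60 probes had a mean of −0.01 on the array, against 0.37 before and 0.35 behind them. In the own liver the same 60 probes had a mean of −0.11, so that the tumor was still 0.11 above it. The search for changes of level allowed no piece under 60 probes, so that a shorter and lower stretch inside cannot be told apart. Both stretches were picked for their values.

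The adenoma of mouse 5884 changed level within the chromosome. Its array ratio was 0.10 in the proximal segment, −0.54 in the middle segment and −0.18 in the distal segment, which are linear ratios of 1.08, 0.69 and 0.88. Against its own liver the differences were 0.11, −0.53 and −0.17, and against the livers of the other mice 0.10, −0.50 and −0.19. The proximal segment was thus above the median of the autosomes, the distal segment below it and the middle segment lowest. Against the own liver, 40 windows of this adenoma were lower by more than 0.3, 2 proximal, 11 in the middle and 27 distal, where 3.47% of all its autosomal windows were, and 8 windows, all proximal, were higher (9.16% of all).

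**Figure D3:**
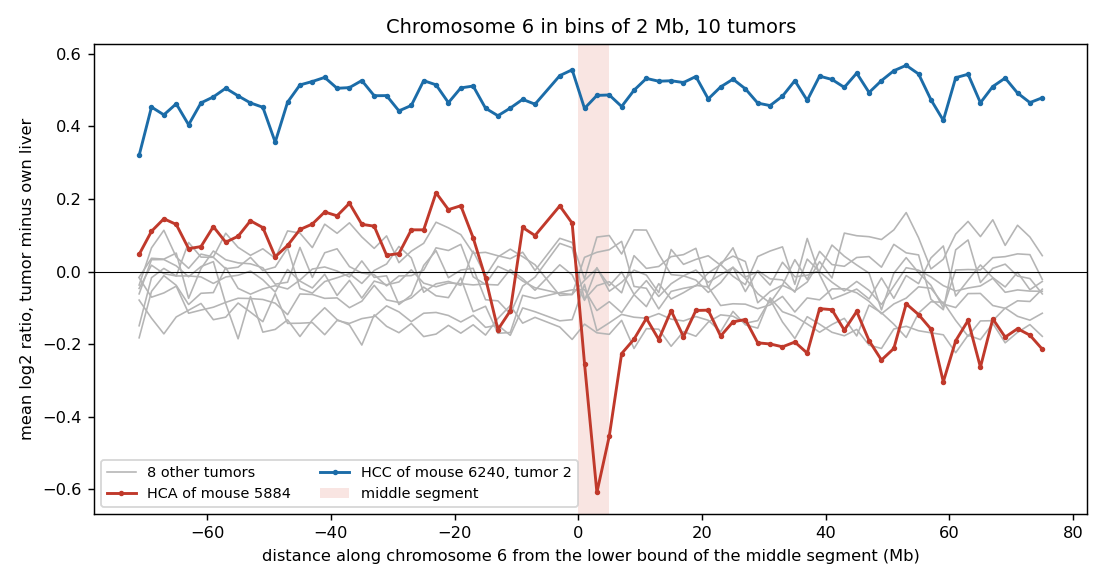
Mean log2 ratio, tumor minus own liver (y axis), in bins of 2 Mb against the distance from the lower bound of the middle segment (x axis, Mb), for 10 tumors. HCC 6240 tumor 2 (blue) runs high over the whole chromosome (segment means 0.48 to 0.51), and HCA 5884 (red) falls from a proximal mean of 0.11 to −0.53 in the middle segment (shaded) and stays at −0.17 beyond it.

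These steps can be read on 1 array without any liver. The middle segment minus the 10 Mb on either side was −0.50 in HCA 5884. The same difference was −0.07, −0.08 and −0.09 in the HCAs of mice 2430, 5901 and 6199. It ran from −0.09 to 0.04 in the HCCs with a median of −0.04, and from −0.07 to 0.02 in the livers with a median of −0.06. The other 18 arrays therefore stayed within 0.09 of 0, and their slight shift below 0 was shared by most livers. The distal minus the proximal segment was −0.28 in HCA 5884, and on the other 18 arrays it lay between −0.04 and 0.04. With normexp background correction the step of the middle segment in HCA 5884 shrank to −0.09, and its distal minus proximal segment to −0.06. With no background correction they were −0.23 and −0.12, so that the direction was kept and the size depended on the background.

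**Figure D4:**
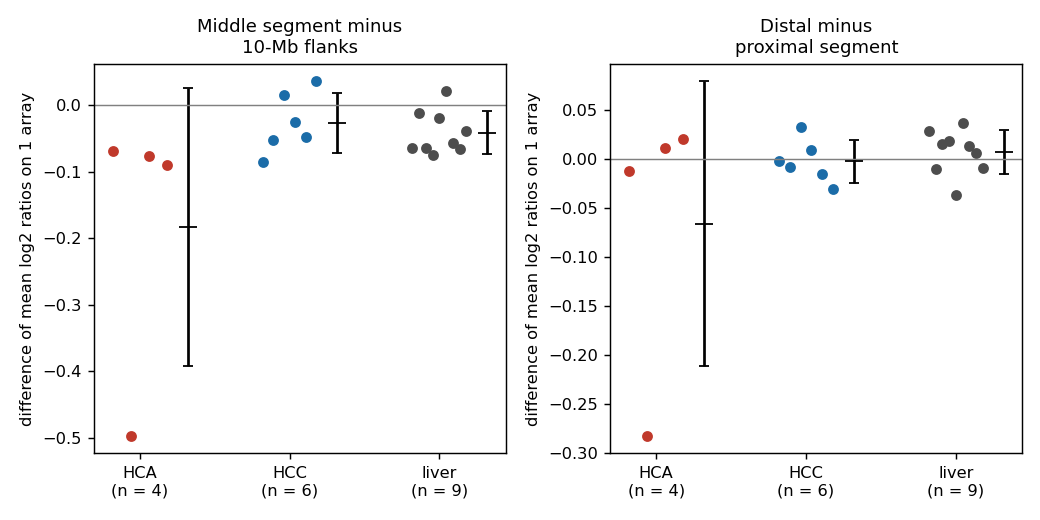
Middle segment minus the 10-Mb flanks (left) and distal minus proximal segment (right), as differences of mean log2 ratios on 1 array (y axes), for 4 HCAs, 6 HCCs and 9 livers, with the mean and SD of each group beside its points. A single HCA, that of mouse 5884, lies apart at −0.50 and −0.28 and sets the mean and SD of its group.

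The step was seen in the channel that holds tumor DNA. In the Cy5 signal of HCA 5884, taken against the own liver, the middle minus the proximal segment was −0.63. In the Cy3 signal, which holds the control DNA, the same difference was 0.0067. For tumor 2 of mouse 6240, the Cy5 signal against the own liver was higher by 0.49, 0.48 and 0.50 in the 3 segments, and the Cy3 signal by 0.016, 0.015 and 0.00068.

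A search for changes of level along chromosome 6 in the difference between tumor and own liver found more than the 2 given bounds in HCA 5884. The chromosome was divided into 9 pieces of at least 60 probes whose levels differed by at least 0.1. The first piece, from 3.02 to 56.63 Mb, was at 0.12 against the own liver. From 56.64 to 59.89 Mb the level was 0.01, and from 59.93 to 63.25 Mb it was −0.20 over 217 probes. The other HCAs had similar values over these probes, −0.11, −0.16 and −0.17 against their own livers in mice 2430, 5901 and 6199, and on the array tumor 4 of mouse 6240 was at −0.21 and HCA 5884 at −0.18. In HCA 5884 the level returned to 0.13 from 63.26 to 73.41 Mb.

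The low middle of the chromosome was divided further by the search in this adenoma. Between 73.42 and 75.37 Mb the difference from the own liver was −0.25 over 69 probes. On the array this stretch was at −0.31 in HCA 5884, but at −0.37 in HCA 2430 and −0.37 in tumor 4 of mouse 6240. The livers ran there from −0.31 (mouse 6240) to 0.13. It holds 2 of the single low probes described below, without which HCA 5884 was at −0.23 on the array. From 75.40 to 78.25 Mb the difference from the own liver was −0.64 over 213 probes, and of these probes 98.1% were below 0 on the array. In the 9 livers the mean of this piece ran from −0.13 to 0.09. The distal part beyond 78.27 Mb was at −0.16 up to 130.41 Mb, at −0.30 from 130.43 to 133.98 Mb and at −0.18 from there to the end. In HCC 6487 the search gave a piece at nearly the same place, from 129.98 to 134.01 Mb, at −0.11 against its own liver. Moving each bound of the middle segment outward by 1 Mb brought its step from −0.50 to −0.29, and moving them inward left it at −0.48.

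Other tumors had fewer or smaller changes of level. HCA 2430 changed once, at 16.2 Mb, from 0.02 against its own liver in the first 13.2 Mb of probes to −0.16 over the remaining 133.3 Mb. Of its windows, 28 were lower than the own liver by more than 0.3, where 16.1% of all its autosomal windows were. In HCA 5901 there were 8 such windows, against 2.29% of all. The HCAs of mice 5901 and 6199, tumor 4 of mouse 6240 and the HCCs of mice 6565, 6602 and 6642 were each read as 1 piece. In HCC 6487 the search gave 11 pieces, most of them with small steps to their neighbours. The steps at both ends of its piece from 86.65 to 87.10 Mb were −0.38 and 0.45, where the largest of HCA 5884 were −0.39 and 0.48. The clearest stretch of HCC 6487 lay between 86.66 and 86.98 Mb in the distal segment, where 43 probes over 322 kb had a mean of −0.41. Of these probes, 41 were below 0 and 42 below the own liver, whose mean was 0.10. The surroundings of the stretch in HCC 6487 were at 0.12, the 9 livers ran from −0.03 to 0.22 there and the other 9 tumors from −0.19 to 0.45.

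By group, the HCAs had lower ratios than the livers on chromosome 6. The proximal segment was at −0.06 ± 0.11 (SD, n = 4) in HCA, 0.07 ± 0.17 (n = 6) in HCC and 0.0012 ± 0.058 (n = 9) in liver. The middle segment was at −0.27 ± 0.18 in HCA, 0.03 ± 0.17 in HCC and −0.03 ± 0.07 in liver. For the distal segment the means were −0.13 ± 0.05, 0.07 ± 0.16 and 0.01 ± 0.07. Against the own livers, the 3 other HCAs were below 0 in each segment, with −0.11 ± 0.03, −0.13 ± 0.04 and −0.12 ± 0.05, and the 5 other HCCs were at 0.0068 ± 0.041, 0.0070 ± 0.054 and 0.0033 ± 0.034. The groups overlapped in all 3 segments. Below every liver were HCA 2430 and tumor 4 of mouse 6240, an HCC, in the proximal segment, HCA 5884 in the distal segment, and all 3 of these tumors in the middle segment. The overlap of HCA and liver in the middle and distal segments rested on the liver of mouse 6240. The other 8 livers ran from −0.07 to 0.09 in the middle and from −0.01 to 0.08 in the distal segment, and all 4 HCAs were below them there. In the proximal segment 3 HCAs were below these 8 livers and HCA 5884 was above them. Without the liver of mouse 6240, HCA minus liver was −0.078, −0.26 and −0.16 in the 3 segments, and HCC minus liver was 0.052, 0.049 and 0.037. Without tumor 2 of that mouse, HCC minus liver was 0.012, 0.015 and 0.0034. Arrays were scanned on 3 days. Within the first day the 2 HCAs were lower than the 3 livers by −0.11 over the chromosome, and within the second day the other 2 HCAs differed from 2 livers by −0.12. HCCs were above the livers by 0.04 on the second day (1 against 2) and by 0.07 on the last day (5 against 4). Without tumor 2 of mouse 6240 the last-day difference was 0.0043 (4 against 4).

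In a fit of all autosomal windows with limma, 62 of 681 windows of chromosome 6 were lower in HCA than in liver at an adjusted p under 0.05 (Benjamini-Hochberg over 11045 windows), a share of 9.10%. Of all autosomal windows, 24.6% were lower in this comparison, so that chromosome 6 was less often called than the genome as a whole, a description with no test. The 62 windows were spread as 6 in the proximal, 11 in the middle and 45 in the distal segment, and this spread rested on HCA 5884, since without it 24 proximal, 4 middle and 13 distal windows were called. The 62 windows had differences of −0.33 to −0.15, and 0 windows were higher, where 13.9% of all windows were. On chromosome 6, 162 windows had an unadjusted p under 0.05 by limma in either direction. The share of all autosomal windows at this unadjusted threshold was not counted in any comparison. Such counts are therefore given without a background. With the mouse as a block, 3 windows of chromosome 6 were called for HCA against liver, where 844 of all windows were higher and 1768 lower. Without HCA 2430 there were 23, where 815 of all windows were higher and 1596 lower. The count was 41 without HCA 5884 and, since all groups share 1 estimate of the spread, 94 without tumor 4 and 170 without tumor 2 of mouse 6240. It was 118, 34, 41 and 37 without the liver of mouse 6240, 6487, 6602 and 6642. The calls over all autosomes moved too, with 1966 windows higher and 2902 lower without tumor 2 of mouse 6240.

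For HCC against liver, 3 windows of chromosome 6 were called, all of them higher and all between 17.29 and 18.62 Mb, against 4.16% of all windows. No window was lower, where 14.1% of all were at the adjusted threshold. At an unadjusted p under 0.05 limma had 22 windows of chromosome 6, with no count over all windows beside them. The livers themselves differed in these windows. Their mean ran from −0.09 to −0.08 in the 4 livers of p53 floxed mice, all females, and from −0.03 to 0.35 in the 5 livers with p53ser246+. Of the latter, the females of mice 6240 and 6602 had −0.03 and 0.15, and the males had 0.22, 0.30 and 0.35. The windows had been picked by the fit, and how many other windows separate these livers was not counted. HCCs had 0.01 to 0.55 in the windows, and minus their own livers 0.00070 to 0.15, apart from tumor 2 of mouse 6240 with 0.57. With the mouse as a block, limma had 8 windows of chromosome 6 at an unadjusted p under 0.05. It called 0 of them at the adjusted threshold, where 156 of all windows were higher and 1313 lower. The count was 31 without tumor 4 of mouse 6240, 6 without the liver of mouse 6642 and 5 without that of mouse 6487. It was 1 without the HCC of mouse 6487 or 6565. It was 0 without tumor 2 of mouse 6240 or the HCC of mouse 6602 or 6642. The count was also 0 without the liver of mouse 2430, 5884, 5901, 6199 or 6240. Without the HCC of mouse 6642 limma called no window on any autosome. Without tumor 2 of mouse 6240, 1194 of all 11045 windows were higher and 1956 lower.

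HCC and HCA differed in 73 windows of chromosome 6, all higher in HCC, 19 proximal, 8 in the middle and 46 distal, or 10.7%, where 4.16% of all windows were higher in HCC and 4.86% lower. The differences were 0.20 to 0.49 with a median of 0.27. Both sides of this comparison held a tumor for which the chromosome was chosen. The count was 27 without tumor 2 of mouse 6240 and 63 without HCA 5884, which were then 37 proximal, 5 in the middle and 21 distal. It was 13, 24 and 29 without the HCA of mouse 2430, 5901 and 6199. It was 30 and 48 without the HCC of mouse 6487 and 6565, and 271 without tumor 4 of mouse 6240. Over all autosomes 281 windows were higher and 388 lower without tumor 2 of mouse 6240, and 737 and 631 without tumor 4. With scan day as a covariate 3 windows were called, where 76 of all windows were higher and 281 lower. With the mouse as a block limma called no window on any autosome, with 80 windows of chromosome 6 at an unadjusted p under 0.05.

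In the unaffected livers the segments were compared by p53 genotype, which the choice of the chromosome had not used. The proximal segment was at 0.0060 ± 0.080 (SD, n = 5) with p53ser246+ and at −0.0049 ± 0.020 (n = 4) with floxed p53. The middle segment was at −0.03 ± 0.10 and −0.04 ± 0.03, and the distal segment was at 0.0086 ± 0.10 and 0.0085 ± 0.021. In exact two-sided permutation tests over the livers (n = 5 and n = 4), p was 0.84, 0.75 and 1.0, and 1.0 for each segment after Benjamini-Hochberg adjustment over the 3. The smallest p this design allows is 0.0079. Without the liver of mouse 6240 the differences between genotypes were 0.045, 0.058 and 0.044. The floxed livers were scanned on the first and second day and the others on the second and last. Only the second day held both, 1 of each, with differences of 0.06, 0.16 and 0.08. These were the livers of mouse 6487, a male, and mouse 6199, a female, each with control DNA of the opposite sex. Genotype, sex and control sex cannot be told apart there, and on the other days genotype and scan day cannot. The floxed livers all came from females and the others from both sexes.

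Between 50 and 75.3 Mb of chromosome 6, a group of single probes was far below its neighbours in livers and tumors alike. The ratio of a probe minus the median of the 25 probes on either side was below −0.5 in at least 8 of 9 livers for 11 of 13644 probes on chromosome 6, or 8.06 in 10000. On the other 18 autosomes there were 23 such probes of 207466, or 1.11 in 10000. All 11 lay in a span of 25.3 Mb that holds 14.7% of the probes of the chromosome, 9 of them in the proximal and 2 in the middle segment.

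Of these probes, 5 between 53.89 and 57.58 Mb were low without exception. They were below −0.5 on all 19 arrays, and no probe of the other autosomes was. Their median difference from the neighbours over the livers was −3.13 (53.89 Mb), −3.33 (54.21 Mb), −4.01 (54.93 Mb), −3.15 (55.54 Mb) and −1.89 (57.58 Mb). The probe at 54.93 Mb ran from −5.41 to −1.91 in the livers and from −5.59 to −2.47 in the tumors. The ranges of tumors and livers overlapped at each of the 5 probes.

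Other probes of the group differed between mice. The probe at 73.70 Mb, in the middle segment, was at −5.24 to −3.27 in 8 livers and at 2.55 in the liver of mouse 6487, and the HCC of that mouse was at 2.29. At 75.27 Mb the liver and the HCC of mouse 6487 were at 1.89 and 2.48, and the other 8 livers were at −4.21 to −1.47. At 50 Mb it was mouse 6240 that was high, with 1.31 in the liver, 1.54 in tumor 4 and 0.49 in tumor 2. In each case the tumor and the liver of 1 mouse were high together. Without these 11 probes, added after seeing the data, the middle segment minus its flanks was −0.48 in HCA 5884 and chromosome 6 of tumor 2 of mouse 6240 was 0.50 above the own liver.

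**Figure D5:**
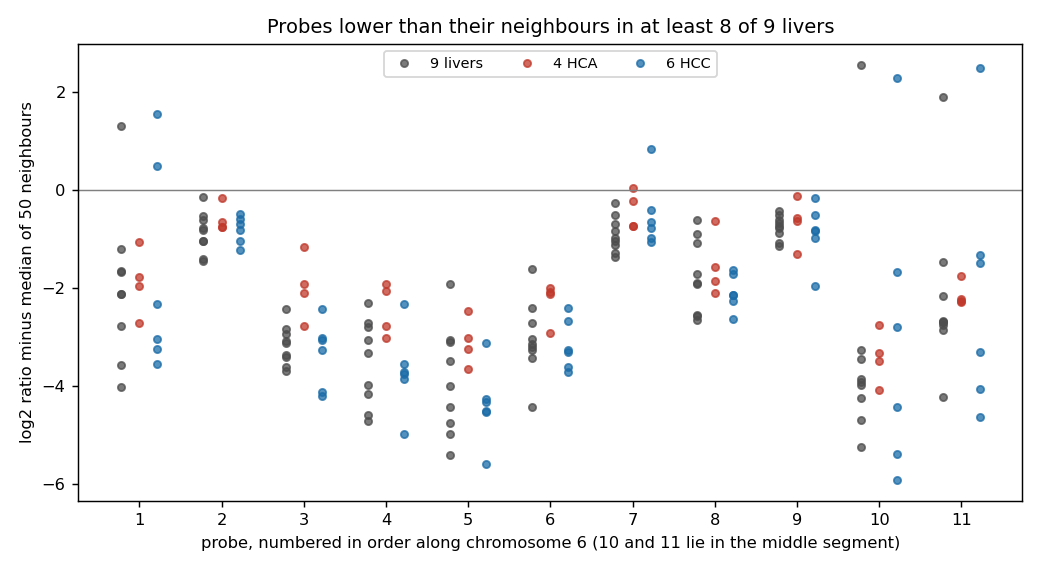
Log2 ratio minus the median of 50 neighbouring probes (y axis) for the 11 probes that were below −0.5 in at least 8 of 9 livers, numbered along chromosome 6 (x axis), in 9 livers, 4 HCAs and 6 HCCs. Probes 3 to 6 and 8 are low on every array, and the points above 1 at probes 1, 10 and 11 belong to mice 6240 and 6487.

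A pair of neighbouring probes at 66.49 Mb lay in this span and was lowest in tumor 2 of mouse 6240. The first of them, the ninth low probe, was at −1.15 to −0.42 in the livers. It was lowest in tumor 2 of mouse 6240, at −1.96, where the own liver was at −0.67 and tumor 4 of the same mouse at −0.17, and next lowest in HCA 5884, at −1.30. Its neighbour was at −2.08 in tumor 2 of mouse 6240, −0.86 in the own liver and −1.16 both in HCA 5884 and in its liver. At this second probe the samples of mice 6487, 6565 and 6602 lay between −0.04 and 0.44. The second probe was added because it follows the first, and both were described after their values had been seen. Whether these probes lie at the floxed Mad2l1 gene, part of which Cre removes, was not tested.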

How the data were processed

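Per the labels and file headers, the authors hybridized Cy5-labeled sample DNA and Cy3-labeled control liver DNA to Agilent 244K arrays and deposited, for each spot, the log10 ratio, processed signals and median spot and background intensities from Feature Extraction 10.5.1.1, after spatially detrended background subtraction and linear dye normalization. A deposited table over all samples gave identical log10 ratios. Ratios were turned to log2, outlier spots left out, spots of 1 probe averaged and arrays centred on the autosomal median. Positions are those of NCBI37 in the files. Windows of 20 probes over all autosomes were fitted with limma 3.58.1 (R 4.3.3), 19 arrays in 3 groups, without covariates. Segments were compared by exact permutation tests between livers. The fit and the search for changes of level were tested on simulated data. On the array, 98.2% to 99.9% of chromosome 6 spots were well above background in both channels. The median ratio of Cy5 signal to background was 1.84 to 4.86 over the arrays. It was lowest in the liver (1.84) and the HCA (1.95) of mouse 5884. Precision is limited by how many arrays there are, and the step of HCA 5884 also depended on the background correction. The pairing of tumor and liver comes from the mouse in the labels. Over chromosome 6 windows their deviations from the group means correlated with 0.04 to 0.51, and 9 of 10 pairs were above 0.1. The own liver had the highest correlation of all livers in 6 of 10 tumors there, and in 5 of 10 over the windows of all autosomes. The members, bounds and lists were chosen with earlier results of these data known. The named-gene rule listed Mad2l1 and the genes of the middle segment through a gene name column, and these, with the 3 planned comparisons of Mad2l1, were not analysed here because no such column or NCBI37 annotation was used. Stretches, probes and pieces named by position were chosen after their values were seen. Separate mice are the replicates, except for both HCCs of mouse 6240. Alternatives covered background, dye normalization, centring, filters, bounds, window size, sex, pairing, scan day and each sample left out.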

Additional observations from a re-analysis of the deposited data

Results flagged for a closer look

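Of 30 sets of values of 1 group, 11 had a sample far from the others by Dixon's ratio at the 95% level. Chance flags about 1 in 20, but the sets overlap and 8 of the 11 are values of HCA 5884 and tumor 2 of mouse 6240, for which chromosome 6 and its bounds were chosen, so that these 8 are a description. The other 3 belong to 1 liver. HCA 5884 stood apart from the other 3 HCAs in the middle segment minus its flanks (−0.50 on the array, −0.48 against the own liver) and in the distal minus the proximal segment (−0.28 and −0.27). Tumor 2 of mouse 6240 stood apart from the other 5 HCCs when each tumor was set against its own liver, with 0.48 in the proximal segment, 0.47 in the middle segment as a difference of segment means, 0.51 in the distal segment and 0.50 over the chromosome. On the array ratio it was not far enough from the others for this criterion. The liver of mouse 6240 was lower than the other 8 livers in the proximal segment (−0.13), the distal segment (−0.17) and the whole chromosome (−0.15), and this liver also had the highest probe noise. Its part in the difference of 0.50 can be read from the value against the livers of the other mice, 0.32. HCC and HCA differed in 73 windows of chromosome 6 (10.7%), all higher in HCC. Of all windows in the fit, 4.16% were higher and 4.86% lower. The count was 27 without tumor 2 of mouse 6240, where 281 of all windows were higher and 388 lower.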

How the results depend on the processing

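Of 483 alternative values, 397 were read as unchanged. For tumors this meant a shift of less than the SD of the group, or of the livers for a single tumor. For livers it meant the same sign and the same side of an adjusted p of 0.05, and for counts at most 1.5 times. The SD of the HCCs (0.17, 0.17 and 0.16) was above HCC minus liver (0.068, 0.067 and 0.059). In the proximal segment of HCA the SD was 0.11 and the difference −0.061. Such differences could fall to 0 and still be read as unchanged, so that the count of 397 does not measure their stability. HCA minus liver in the middle segment, −0.24 and −0.065 with normexp, was also read as unchanged. Leaving out another sample cannot change a value of 1 tumor, so that 18, 18 and 17 of these values were fixed in advance. More of the unchanged values were fixed too. Leaving out an HCC cannot change HCA minus liver, and leaving out an HCA cannot change HCC minus liver. The deposited table over all samples holds the same ratios, and centring cannot change a difference within 1 array. In all, 22 changed sign, all of them differences between livers of both p53 genotypes, which were near 0. Where a setting changed a value, the cause was not tested. HCA minus liver was −0.061, −0.24 and −0.13 in the 3 segments, −0.024, −0.065 and −0.035 with normexp background, and −0.034, −0.11 and −0.065 with no background correction. With normexp background the middle minus flanks in HCA 5884 was −0.093 and its distal minus proximal −0.062, and with no background correction these were −0.23 and −0.12. The middle minus flanks was −0.45 by the median of the probes, −0.29 with widened bounds and −0.45 against the livers of the other mice. Chromosome 6 of tumor 2 of mouse 6240 was at 0.39 with no background correction, 0.32 against the livers of other mice and 0.35 with no liver taken off. For HCA against liver, the count of windows was 0 with normexp, 6 with no background correction, 40 with loess, 100 and 37 with windows of 10 and 40 probes, 199 with both HCCs of mouse 6240 averaged, 6 in females, 37 with scan day and 3 with the mouse as replicate block, and 23 to 170 with 1 sample left out. For HCC against liver it was 0 with normexp, 1 with no background correction, 5 with no centring, 0 with windows of 40 probes, 8 with averaging, 0 in females, 0 with scan day and 0 with the replicate block, and 0 to 31 with 1 sample left out. For HCC against HCA it was 0 with normexp, 0 with no background correction, 158 with no centring, 211 with averaging, 0 in females, 3 with scan day and 0 with the replicate block, and 13 to 271 with 1 sample left out. At an unadjusted p under 0.05, limma had 1, 10 and 62 windows of chromosome 6 with normexp in these 3 comparisons, with no count over all windows beside them. For HCC against liver, limma called no window on any autosome with normexp or in females. For HCC against HCA the same held with normexp, no background correction, females and the replicate block. For HCA against liver with normexp, 647 of all windows were higher and 453 lower.

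The p53ser246+ minus floxed difference of the livers changed sign in the distal segment with normexp (−0.012), no background correction (−0.012), loess (−0.012), centring without chromosome 6 (−0.00057), probes well above background on every array (−0.0065), the median of the probes (−0.021) and females (−0.076). In the proximal segment it did so with no background correction (−0.0031), loess (−9.75e-05), the median (−0.0092) and females (−0.048), and in the middle segment with the median (−0.0088) and females (−0.061). With 1 liver left out it ran from −0.0065 to 0.045, −0.010 to 0.058 and −0.018 to 0.044. No paired analysis was possible because each mouse gave 1 liver. No setting was varied for Mad2l1, which was not analysed here.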
